A study of Mus musculus with 18 samples.

Results

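6 liver libraries were compared, 3 from mice given lipopolysaccharide (LPS) and 3 from mice given LPS after moringa isothiocyanate-1 (MIC-1), out of 9 liver libraries and 18 libraries in the whole series. Of the 21441 genes listed for liver, all 10147 with a mean above 1 FPKM (fragments scaled by transcript length and library depth) over the 9 liver libraries were described. All mice were wild type C57BL/6, and the study's methods give them as males; no age was given. The LPS group received LPS by intraperitoneal injection at 10 mg/kg. The LPS+MIC-1 group was also gavaged with MIC-1 at 80 mg/kg in 10% DMSO during the 3 days before the same injection. The 3 controls, set beside both groups here, were injected with saline and had neither LPS nor MIC-1. The study describes gavage with vehicle where MIC-1 was not given, and calls its controls a vehicle group. Its methods do not state the vehicle separately for the LPS group. Livers were taken at 16 h, so the data hold 1 time, 1 dose of each agent and no group given MIC-1 alone. The methods name purified MIC-1, while the sample protocols refer to a dose standardised on a moringa seed extract.

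LPS, from the cell wall of Gram-negative bacteria, is sensed by Toll-like receptor 4 and its partners, and the cells that respond release cytokines through NF-κB, a transcription factor held in the cytoplasm by inhibitors such as the product of Nfkbia. In liver, hepatocytes answer these cytokines with the acute-phase response, in which plasma proteins such as serum amyloid A are made in bulk while many metabolic genes are turned down. MIC-1 is the main isothiocyanate of moringa seeds. Isothiocyanates react with thiols, among them those of Keap1, the protein that keeps the transcription factor Nrf2 (gene Nfe2l2) low, and Nrf2 drives genes of glutathione and quinone metabolism. The comparison asks how livers of mice given MIC-1 before LPS differed from livers of mice given LPS alone.

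The libraries within a group were not equally alike. Libraries are numbered here by their order within a treatment. Across the tested genes the log2 values of libraries 1 and 3 correlated at r = 0.979 within LPS and at 0.979 within LPS+MIC-1, a description across genes, which are not independent. Library 2 of LPS correlated with the other two at 0.889 and 0.893, and library 2 of LPS+MIC-1 at 0.935 and 0.932. Library 2 of LPS was more like library 2 of LPS+MIC-1 (0.948) than like any library of its own group. The same held for library 2 of LPS+MIC-1. Libraries 1 and 3 of LPS correlated with libraries 1 and 3 of LPS+MIC-1 at 0.945 to 0.955, above their values with library 2 of LPS. The median squared difference of a pair was set against the variance of counting error. This used 604 to 870 genes per pair, with a single transcript and 200 to 2000 estimated reads. Libraries 1 and 3 still differed by more than counting error, at 4.39 times its variance in LPS and 1.98 times in LPS+MIC-1. For pairs with library 2 the squared difference was 42.1 and 46.4 times that variance in LPS and 21.85 and 22.5 times in LPS+MIC-1. Counting error is not the only spread between preparations, so this does not show that libraries 1 and 3 came from separate animals. All 3 were kept as separate samples because the labels list them as 3 replicates, and the p-values rest on that. Results that rest on library 2 are given below with and without it. Total FPKM per library lay between 783886 and 887241 with LPS and between 1000900 and 1063780 in LPS+MIC-1, and the depths estimated from the steps between low FPKM values were 8525820 to 13573900 reads. The 12 hepatocyte markers were all expressed, with summed levels of 55591 to 57775 FPKM in LPS and 47589 to 69837 FPKM in LPS+MIC-1, so the labelled tissue was borne out. In such bulk tissue, fewer cells of a type and less RNA per cell cannot be told apart.

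Single genes differed little. With limma over the 9 libraries, 0 of 10147 genes (0%) passed an adjusted p of 0.05 between LPS+MIC-1 and LPS, and 364 had an unadjusted p below 0.05, 202 of them higher (1.99% of tested genes) and 162 lower (1.6%). That is a smaller share than the 0.05 which this threshold lets through where no gene differs. LPS against control, in the same fit, gave 1947 genes higher (19.2%) and 1573 lower (15.5%) at the adjusted threshold. The fold change (Log2FC, on the scale of log2(FPKM + 0.5)) had a median of -0.01 over all genes, with 4960 genes above and 5183 below 0, and its median standard error (SE) was 0.29. The FPKM ranges of the groups did not overlap for 518 genes that were higher with MIC-1 (5.1%) and 471 that were lower (4.64%), together 989 genes (9.75%). For such a gene the exact two-sided permutation test gives p = 0.1, the smallest that 3 against 3 libraries allow. Where no gene differs, a share of about 0.1 would have such ranges, split evenly by direction. The 989 genes (9.75%) are about that share, so their number is no yield of the comparison. Their median absolute Log2FC was 0.42, and only 85 of them exceeded 1. These counts depended on scaling and on library 2. After all libraries were brought to an equal FPKM sum, 101 genes were higher and 1722 lower, because this scaling moved the median of all genes to -0.26. Without library 2 of LPS the ranges did not overlap for 4615 genes, and without library 2 of LPS+MIC-1 for 3357. The adjusted threshold was then passed by 36 and 0 genes.

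The gene with the smallest p-value was Dmbt1, on chromosome 7 of mm9 from 138175590 to 138265140 (plus strand), which encodes a secreted scavenger-receptor glycoprotein of mucosal surfaces that binds bacteria. Dmbt1 was at 0.107, 0 and 0.0519 FPKM in the LPS libraries and at 5.74, 11.4 and 5.49 FPKM in the LPS+MIC-1 libraries. The controls, at 0.128, 0.835 and 0.282 FPKM, lay with LPS, so the level with MIC-1 exceeded that of all 6 other libraries. Its Log2FC was 3.79 (SE 0.38, limma adjusted p = 0.0546), just short of the threshold, and the adjusted p ranged from 0.000556 to 1 over 20 other settings. Spink4, a protease inhibitor known from intestinal goblet cells, was listed at 0 in all 3 LPS libraries and at 1.42, 5.32 and 1.8 FPKM with MIC-1. Spink4 too passed the filter only through the LPS+MIC-1 group. Dmbt1 and Spink4 were both highest in library 2 of LPS+MIC-1. The pancreas and gut marker Reg1 was also highest there, at 10.2 FPKM against 0 and 0.465 in the others of its group and 0 in the LPS libraries. The gut gene Lgals4 was instead highest in library 2 of LPS, at 88.4 FPKM, where Dmbt1 and Spink4 were at 0, and was at 49.1 FPKM in library 2 of LPS+MIC-1. Of the 14 pancreas and gut markers in the table, 4 passed the filter and 5 digestive enzyme genes (Prss1, Prss2, Try4, Cela3b and Pnlip) were at 0 in all 6 libraries. The markers summed to 62.6 to 173 FPKM in LPS and 94.6 to 194 in LPS+MIC-1, and their part in these results was not tested. The bile duct marker Krt19, which also passed the filter only through the LPS+MIC-1 group, was at 0.242, 0.209 and 0.154 FPKM with LPS and at 4.47, 0.333 and 3.66 with MIC-1. The bile duct gene Spp1 was instead lower (70.9, 88.4 and 78.8 against 65.3, 56.2 and 54.4 FPKM). The 11 bile duct markers summed to 103 to 108 FPKM with LPS and 78.4 to 93.2 with MIC-1, and 1 of them was at 0 in all 6 libraries. Most of each sum was Spp1, so the sums largely repeat that gene. Of the 6 bile duct markers tested, 3 were higher and 3 lower.

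**Figure D1:**
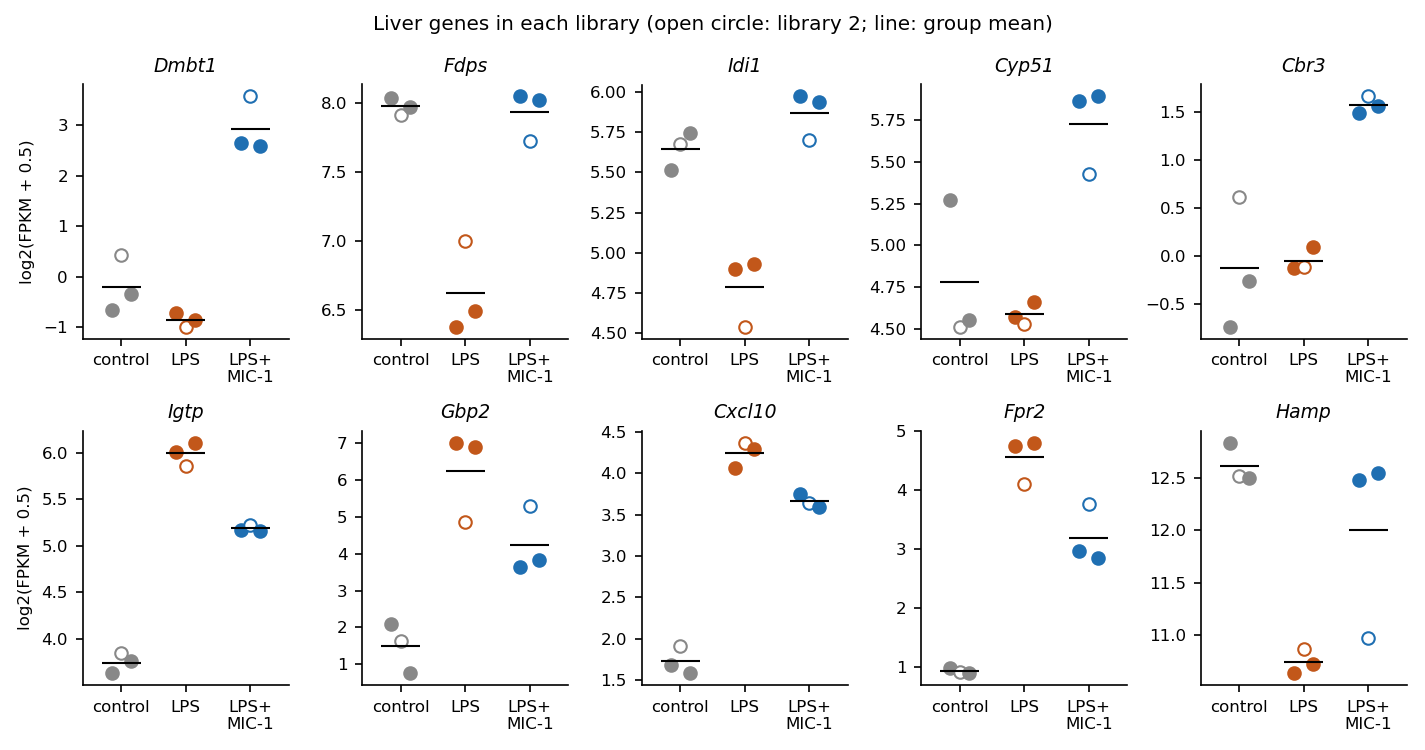
Levels of 10 liver genes in each library, as log2(FPKM + 0.5), for control, LPS and LPS+MIC-1 (3 libraries each; open circles are library 2 and lines are group means). Dmbt1 and Cbr3 lie above both other groups with MIC-1, Fdps and Idi1 lie near or above the controls, Igtp, Cxcl10 and Fpr2 lie between control and LPS, and library 2 stands away from the others of its group in Gbp2 (LPS and LPS+MIC-1) and in Hamp (LPS+MIC-1).

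With all 6 libraries, cholesterol synthesis had the highest median Log2FC of the lists with at least 5 tested genes. Cholesterol is built from acetyl-CoA through mevalonate, isoprenoid diphosphates and squalene, and hepatocytes adjust the whole chain together through the transcription factor SREBP2 (gene Srebf2). Of 24 tested genes of this list 23 had a positive Log2FC, and Hmgcs1 was the exception. The ranges did not overlap for 10 of them, all higher, against 5.1% of all genes, and 6 had an unadjusted p below 0.05, all higher, against 1.99%. The median Log2FC of the list was 0.47, against -0.01 for all genes. The library medians, as differences in log2 from the mean of the LPS libraries, were 0.58, 0.25 and 0.68 with MIC-1 and -0.06, 0.07 and 0.03 with LPS, so the groups did not overlap. Without library 2 of LPS, of LPS+MIC-1 or of both, the list median less that of all genes was 0.58, 0.61 and 0.71. Amino acid catabolism and the urea cycle had a median of 0.46 with all libraries. In the same 3 settings it had 0.60, 0.72 and 0.90, so the order of the 2 lists turned.

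Fdps, farnesyl diphosphate synthase (mm9 chromosome 3, minus strand, from 88897514 to 88905881), had levels of 82.5, 128 and 89.4 FPKM with LPS and of 265, 211 and 260 FPKM with LPS+MIC-1. The controls were at 263, 242 and 251 FPKM, so that the MIC-1 libraries lay near the controls and the LPS libraries below them. The Fdps Log2FC was 1.31 (SE 0.21, limma adjusted p = 0.518). Idi1, the isomerase that makes the substrate pair for Fdps, was at 29.3, 22.8 and 30.0 FPKM with LPS and at 62.4, 51.7 and 60.8 with MIC-1 (Log2FC 1.08, SE 0.18), with controls at 45.2 to 53.1. Cyp51, the lanosterol demethylase, was at 23.3, 22.6 and 24.8 FPKM with LPS and 57.8, 42.5 and 59.0 with MIC-1 (Log2FC 1.14, SE 0.24). All 3 MIC-1 libraries exceeded the controls, at 38.1, 22.3 and 23 FPKM. Nsdhl, a sterol dehydrogenase, was at 10.9, 19.0 and 10.6 FPKM with LPS and 35.4, 23.5 and 37.0 with MIC-1 (Log2FC 1.24, SE 0.27). Here the MIC-1 libraries stayed below the controls, which were at 68.2 to 76.5 FPKM. The neighbouring step, Sc4mol (sterol methyl oxidase), had a Log2FC of 0.85 (SE 0.19), and Acat2, which starts the pathway in the cytosol, one of 0.57 (SE 0.17). Srebf2 itself had a Log2FC of 0.08 (SE 0.43). Against control, LPS had lowered 11 of the 24 genes at the adjusted threshold and raised 1, Sqle, where 15.5% and 19.2% of all genes passed. The 2 comparisons share the LPS libraries.

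**Figure D2:**
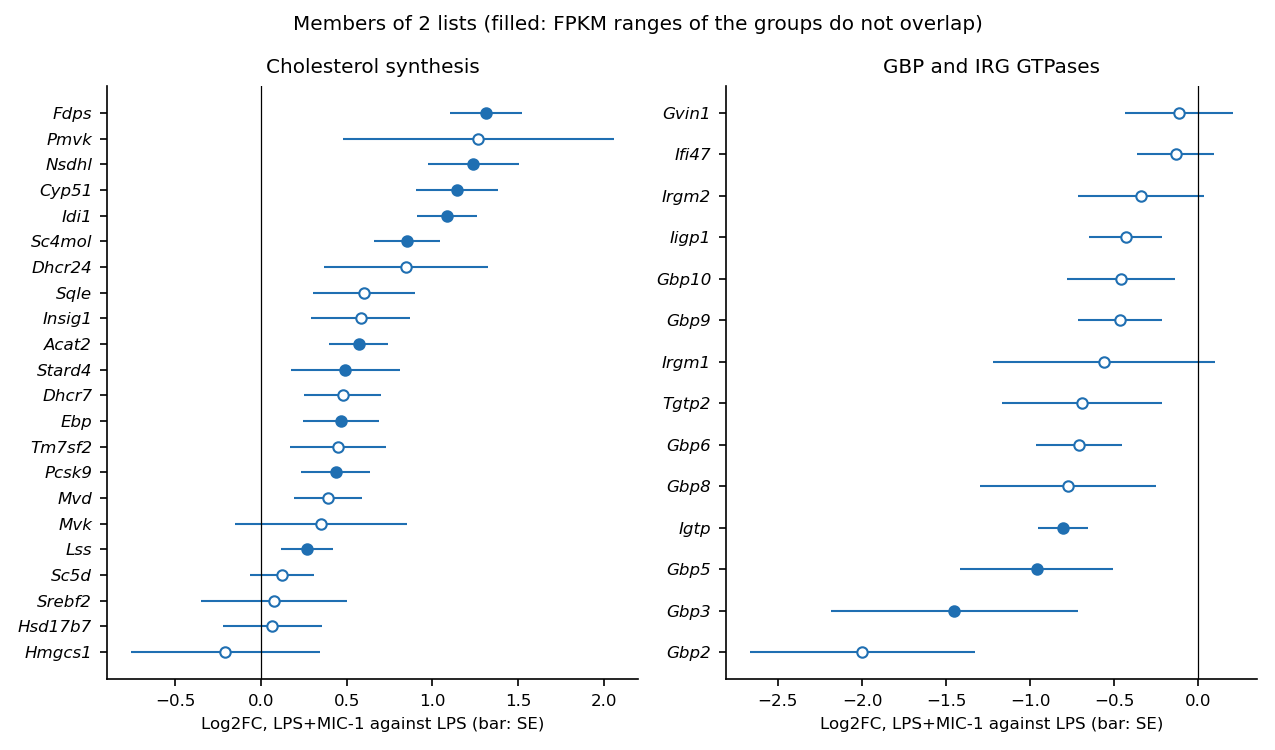
Log2FC of LPS+MIC-1 against LPS with its SE for 22 of the 24 tested genes of cholesterol synthesis (left) and the 14 tested guanylate-binding proteins (GBP) and immunity-related GTPases (IRG, right), with filled points where the FPKM ranges of the groups (3 libraries each) do not overlap. All drawn but Hmgcs1 lie above 0 on the left, and all 14 lie below 0 on the right.

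Promoters of these genes were set side by side to show which short motifs they share. RefSeq gives promoters (300 bases, 250 before and 50 after a start, GRCm38.p6) for 17 of the 24 genes. Both strands were searched, and a match is a description of letters, not of a bound site. The CCAAT box, the motif of the factor NF-Y, was in 16 of the 17, against 42.3% of the tested genes with a promoter and 41.1% of all RefSeq genes. The sterol regulatory element, searched as TCACNCCAC, was in 1 of the 17 (Hmgcs1), against 1.46% of tested genes. The 250 bases before the start are shown for the 3 leading genes that have an entry, on the strand of the gene with CCAAT or its complement ATTGG in capitals.
Idi1: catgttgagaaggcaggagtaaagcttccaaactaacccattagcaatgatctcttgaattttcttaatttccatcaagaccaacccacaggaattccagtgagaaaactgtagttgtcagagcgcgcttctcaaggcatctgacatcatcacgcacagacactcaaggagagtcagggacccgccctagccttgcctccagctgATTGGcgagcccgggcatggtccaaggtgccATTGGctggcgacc
Cyp51: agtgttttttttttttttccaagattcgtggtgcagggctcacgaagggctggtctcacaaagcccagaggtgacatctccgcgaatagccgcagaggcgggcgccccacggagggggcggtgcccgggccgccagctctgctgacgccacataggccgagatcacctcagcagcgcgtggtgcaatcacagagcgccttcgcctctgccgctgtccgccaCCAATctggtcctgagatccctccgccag
Nsdhl: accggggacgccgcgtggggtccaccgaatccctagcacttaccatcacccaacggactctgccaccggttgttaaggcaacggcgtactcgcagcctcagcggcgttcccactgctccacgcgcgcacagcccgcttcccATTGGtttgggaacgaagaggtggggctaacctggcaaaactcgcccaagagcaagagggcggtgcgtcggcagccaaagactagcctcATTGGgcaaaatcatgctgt
These stretches lie at chr13:8885356-8885605 (plus strand), chr5:4104698-4104947 (minus) and chrX:72918271-72918520 (plus) of GRCm38. Idi1 and Nsdhl have 2 matches each and Cyp51 has 1. In each of the 3 the nearest match begins 14 to 29 bases before the start.

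The clearest shift to lower values was in the guanylate-binding proteins and immunity-related GTPases. These GTPases are induced by interferon-gamma and attack the vacuoles in which intracellular bacteria and parasites live. All 14 tested members had a negative Log2FC, with a median of -0.63. The ranges did not overlap for 3, all lower, against 4.64% of all genes, and 3 had an unadjusted p below 0.05, all lower, against 1.6%. LPS had raised 11 of the 14 over control at the adjusted threshold, against 19.2% of all genes. The library medians were -0.74, -0.27 and -0.73 with MIC-1 and 0.03, -0.03 and 0.10 with LPS. Without library 2 of LPS, of LPS+MIC-1 or of both, the list median less that of all genes was -0.60, -0.74 and -0.64.

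Igtp (chromosome 11 of mm9, 58013058 to 58021093, plus strand), an immunity-related GTPase, was at 63.7, 57.7 and 68.5 FPKM with LPS and at 35.5, 36.9 and 35.3 FPKM with LPS+MIC-1. The controls were at 11.9, 13.9 and 13 FPKM, so all 3 MIC-1 libraries lay between control and LPS with little spread. The Log2FC of Igtp was -0.81 (SE 0.15, limma adjusted p = 0.774). Gbp2 was at 128, 28.3 and 117 FPKM with LPS and at 11.9, 38.5 and 13.6 with MIC-1 (Log2FC -2, SE 0.67). Library 2 reversed the order for Gbp2, being lowest with LPS and highest with MIC-1, so the ranges overlapped. Gbp3 was at 14.0, 17.1 and 15.8 FPKM with LPS and at 5.31, 12.0 and 2.29 with MIC-1, and Gbp5 at 6.50, 3.29 and 5.12 against 1.69, 3.12 and 2.04. For both the ranges did not overlap. Gbp6 was at 6.82, 8.21 and 5.07 FPKM with LPS and 3.01, 5.33 and 3.46 with MIC-1. GBP genes of one cluster are alike in sequence, and pseudoalignment could have divided reads between them.

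RefSeq gives promoters for 8 of the 14 GTPase genes. The interferon-stimulated response element, searched as a pair of GAAA with any 2 bases between them, was in 7 of the 8 and in 3.72% of tested genes with a promoter. The gamma-activated site, searched as TTCNNNGAA, was in 4 of the 8 and in 8.08% of tested genes. Each of these 4 held the first motif too, and the motifs overlapped in 0 of them. The 250 bases before the start are shown for the GTPase genes with the smallest p-values, with the first motif in capitals.
Igtp: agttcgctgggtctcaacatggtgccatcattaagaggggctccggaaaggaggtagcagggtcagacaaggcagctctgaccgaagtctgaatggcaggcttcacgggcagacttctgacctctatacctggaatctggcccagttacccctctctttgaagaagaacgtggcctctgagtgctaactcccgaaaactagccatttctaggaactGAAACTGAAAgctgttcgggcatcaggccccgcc
Gbp2: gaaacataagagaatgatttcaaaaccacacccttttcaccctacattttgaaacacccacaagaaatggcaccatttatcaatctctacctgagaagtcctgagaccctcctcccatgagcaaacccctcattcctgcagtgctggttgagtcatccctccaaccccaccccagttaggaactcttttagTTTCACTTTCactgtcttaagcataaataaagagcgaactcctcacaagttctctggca
They lie at chr11:58199306-58199555 and chr3:142620413-142620662 of GRCm38, both on the plus strand. The match begins 34 bases before the start in Igtp and 59 in Gbp2.

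Other interferon-induced genes differed less. Of 31 tested, 25 had a negative Log2FC, with a median of -0.14, and the ranges did not overlap for 4, all lower, against 4.64% of all genes. The list median less that of all genes was -0.13 with all libraries and -0.04 without library 2 of LPS, when 12 genes were higher. It was also -0.04 without library 2 of both groups. The ranges then did not overlap for 12 higher and 10 lower genes of the list. Over all 10147 tested genes, 3286 were then higher and 3734 lower without overlap. Isg15, a ubiquitin-like modifier, was at 235, 121 and 231 FPKM with LPS and at 96.2, 110 and 102 with MIC-1 (Log2FC -0.86, SE 0.27). Rsad2, the antiviral enzyme viperin, had a Log2FC of -0.60 (SE 0.25) and Xaf1 one of -0.58 (SE 0.33), both with ranges that did not overlap, while Zbp1, a sensor of nucleic acids, was at -0.68 (SE 0.31) with ranges that did. All 6 tested genes of MHC class II presentation and co-stimulation were lower (median -0.58), 2 of them without overlap, against 4.64% of all genes. Their library medians were -0.80, -0.17 and -0.71 with MIC-1 and 0.00, -0.17 and 0.21 with LPS, which overlap through library 2. The inhibitory ligand gene Cd274 (PD-L1) was at 5.72, 5.42 and 4.79 FPKM with LPS and 2.89, 3.85 and 3.13 with MIC-1. H2-Eb1, a class II chain, was at 5.26, 5.15 and 7.06 against 3.21, 4.86 and 3.72 FPKM. Against control, LPS had raised 0 and lowered 1 of the 6 at the adjusted threshold, where 19.2% and 15.5% of all genes passed. The Log2FC of LPS against control was -0.29 for Cd274, -0.66 for H2-Eb1, the one that passed, and 0.47 for Cd74.

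Cytokine genes were mostly near the limit of detection. Tnf and Il6 did not pass the filter on mean FPKM and were not tested. Tnf was at 1.36, 2.14 and 1.32 FPKM with LPS and at 1.02, 1.10 and 0 with LPS+MIC-1, and was listed at 0 in the controls. Il6 was at 0.797, 0 and 0.453 FPKM with LPS and at 0.211, 0.503 and 0.149 with MIC-1. Il1b was at 7.21, 9.88 and 9.03 FPKM with LPS and at 4.25, 8.10 and 4.54 with MIC-1 (Log2FC -0.63, SE 0.32), where library 2 of LPS+MIC-1 lay within the LPS range. Csf3, the granulocyte growth factor, was at 4.38, 1.08 and 5.70 against 0.805, 1.98 and 0.667 FPKM. Of 8 tested cytokine genes 6 had a negative Log2FC, Tgfb1 and Il10 being the others, and 0 of the 8 had ranges that did not overlap. Their median less that of all genes was -0.35, and -0.22 without library 2 of LPS. Of 18 chemokine genes 12 were negative (median -0.43), and the ranges did not overlap for 3 lower and 2 higher genes, against 4.64% and 5.1% of all genes. The list median less that of all genes was -0.42, and -0.65 without library 2 of LPS+MIC-1. The lower ones were Cxcl10, Ccl4 and Ccl3. Cxcl10, an interferon-induced attractant of T cells, was at 16.2, 20.2 and 19.2 FPKM with LPS and at 13, 12.0 and 11.6 with MIC-1 (Log2FC -0.58, SE 0.16). Ccl2, the monocyte attractant, was at 28.1, 19.3 and 28.9 against 9.10, 21.9 and 9.14 FPKM, so that libraries 1 and 3 of LPS+MIC-1 were low and library 2 lay in the LPS range. The higher ones were Ccl6 (5.25, 6.97 and 7.81 against 12.6, 8 and 14.6 FPKM) and the eosinophil attractant Ccl24 (0.686, 0.607 and 0.335 against 0.730, 1.45 and 1.48 FPKM).

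NF-κB genes showed the same split between libraries. Of 16 tested subunits and feedback targets 13 had a negative Log2FC (median -0.32), with Relb, Bcl3 and Vcam1 as exceptions, and the ranges did not overlap for 2, Birc3 and Nfkbie, both lower, against 4.64% of all genes. Nfkbia, the inhibitor gene that NF-κB itself induces, was at 178, 122 and 97.9 FPKM with LPS and at 56.9, 123 and 51.6 with MIC-1 (Log2FC -0.85, SE 0.37). Nfkbiz, a nuclear cofactor, was at 13.9, 9.87 and 13.7 against 6.12, 11.6 and 5.74 FPKM, and the adhesion gene Icam1 at 36.9, 40.4 and 39.5 against 24.2, 40.4 and 23.3 FPKM. In each of these, libraries 1 and 3 of LPS+MIC-1 lay below all LPS libraries and library 2 did not. The subunit genes differed by about their error or less, Rela by -0.24 (SE 0.24) and Nfkb1 by -0.14 (SE 0.23). The list median less that of all genes was -0.31 with all libraries, -0.59 without library 2 of LPS+MIC-1 and -0.62 without library 2 of both groups. Among 18 p53 targets and growth arrest genes 15 were negative (median -0.27), with Mdm2, Bbc3 and Ei24 as exceptions, and the ranges did not overlap for Plk2 and Phlda3, both lower, against 4.64% of all genes. The polo-like kinase gene Plk2 was at 5.91, 3.99 and 5.59 FPKM with LPS and at 2.70, 2.12 and 1.82 with MIC-1 (Log2FC -1.06, SE 0.20). Phlda3, which restrains the kinase Akt, was at 7.64, 4.5 and 9.26 against 1.72, 3.36 and 2.15 FPKM (Log2FC -1.38, SE 0.32), with controls at 0.264 to 0.523.

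**Figure D3:**
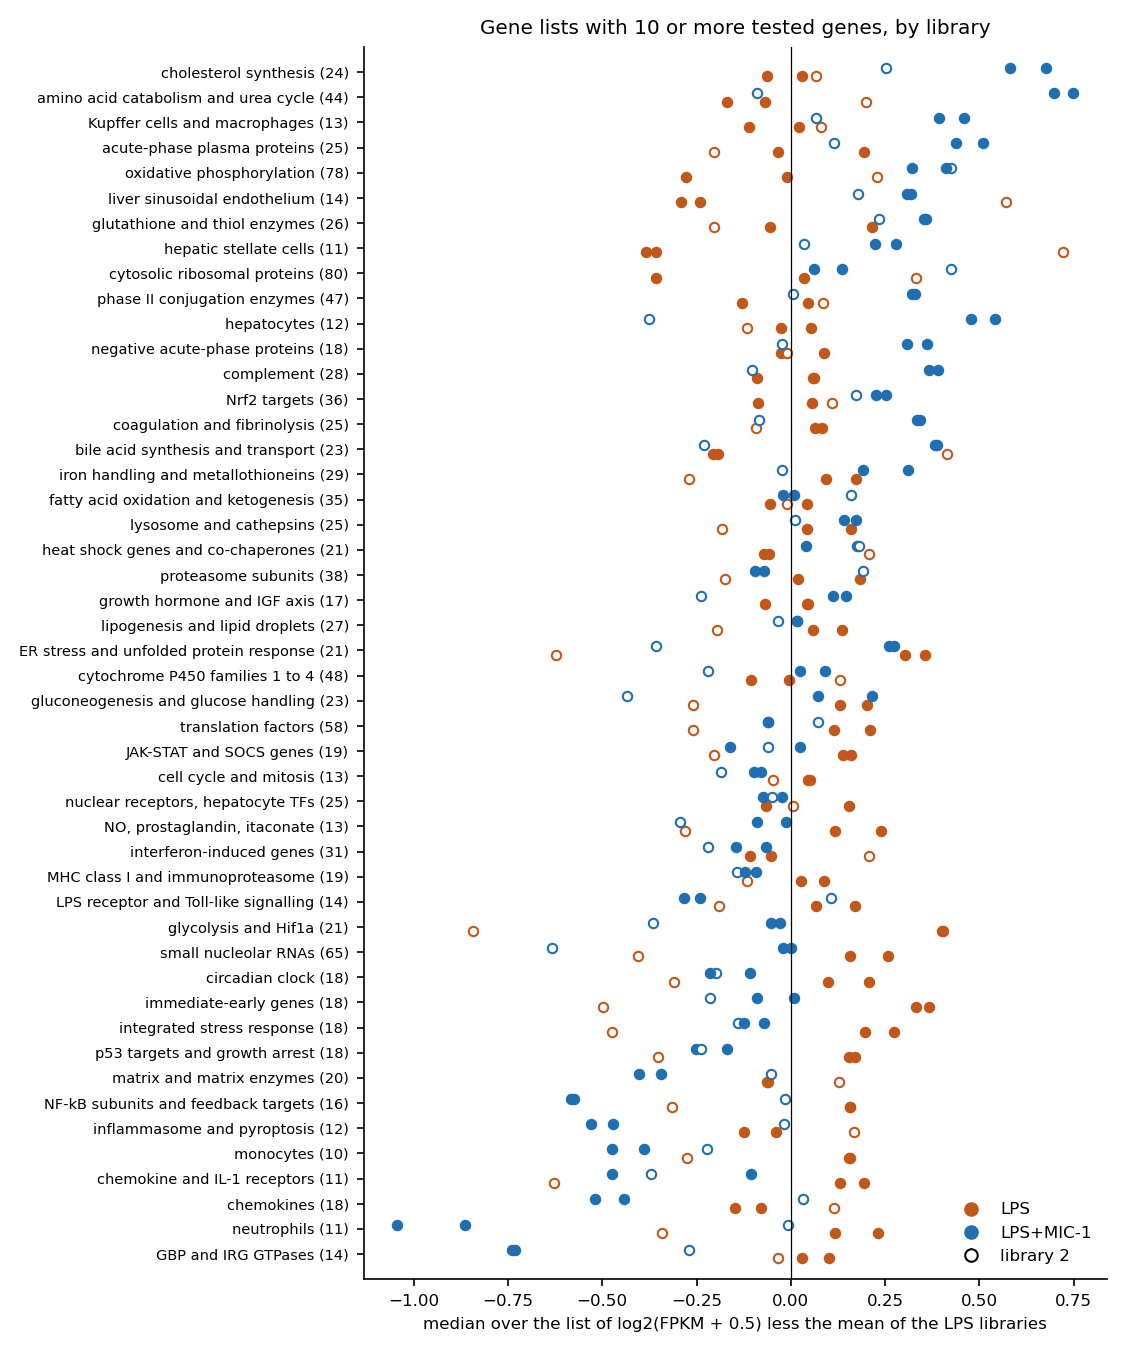
Median over each gene list with 10 or more tested genes (number tested in brackets) of log2(FPKM + 0.5) less the mean of the LPS libraries, for the 3 LPS and 3 LPS+MIC-1 libraries, with open circles for library 2. The 48 lists are ordered by their median Log2FC. The LPS+MIC-1 libraries lie apart from the LPS libraries for cholesterol synthesis, oxidative phosphorylation, glutathione and thiol enzymes and Nrf2 targets (higher) and for the GTPases and cell cycle genes (lower), and elsewhere the groups overlap. A share of about 0.1 of lists would lie apart where nothing differs.

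Markers of neutrophils and monocytes moved with these inflammatory genes. Of 11 tested neutrophil markers 10 had a negative Log2FC, all but Lcn2, with a median of -0.52 and 0 without overlap. Without library 2 of both groups the list median less that of all genes was -1. Stfa2l1 was at 8.20, 2.68 and 5.30 FPKM with LPS and 1.63, 3.80 and 1.15 with MIC-1. Mmp8, neutrophil collagenase, was at 8.87, 4.41 and 5.64 against 2.68, 5.83 and 2.96 FPKM, Retnlg at 26.6, 21.0 and 34.2 against 11.1, 23.7 and 12.3 and the granule gene Ngp at 54.5, 6.62 and 49.7 against 9.46, 19.9 and 8.98. S100a8, a calprotectin subunit, was at 228, 269 and 286 FPKM with LPS and 141, 339 and 143 with MIC-1. In all 5 genes libraries 1 and 3 of LPS+MIC-1 were lower than those of LPS, while library 2 of LPS+MIC-1 lay at or above library 2 of LPS. The 20 neutrophil markers in the table summed, without Lcn2, to 361 to 462 FPKM in LPS and 197 to 473 in LPS+MIC-1, and Csf3r, BC100530 and Mpo were below 0.5 FPKM in all 6 libraries. Of 10 monocyte markers 8 were negative (median -0.33), all but Lyz1 and Lyz2, and the list median less that of all genes went from -0.32 to -0.50 without library 2 of LPS+MIC-1. The 12 in the table summed to 159 to 212 FPKM in LPS and 147 to 171 in LPS+MIC-1. Lymphocyte markers did not share this direction. Of 5 tested T and NK cell markers 3 were higher and 2 lower (median 0.33), with 1 higher without overlap, against 5.1% of all genes. Of 2 tested B and plasma cell markers 1 was higher and 1 lower (median -0.06). Fpr2, a formyl peptide receptor of neutrophils and macrophages, was at 26.3, 16.8 and 27.5 FPKM with LPS and at 7.30, 13.1 and 6.68 with MIC-1 (Log2FC -1.36, SE 0.28), and at 1.35 to 1.49 in the controls. Irg1, the itaconate-forming enzyme of activated macrophages, was at 7, 6.41 and 7.31 against 2.33, 4.11 and 1.53 FPKM. For both the ranges did not overlap. The part of the leukocyte markers in the chemokine, NF-κB and GTPase results was not tested. Markers of resident macrophages went the other way. Of 13 Kupffer cell and macrophage markers 9 had a positive Log2FC (median 0.38), with Fcna, C1qa and C1qb higher and Timd4 lower without overlap, against 5.1% and 4.64% of all genes. The library medians were 0.46, 0.07 and 0.39 with MIC-1 and -0.11, 0.08 and 0.02 with LPS, so library 2 of LPS+MIC-1 lay within the LPS range. The list median less that of all genes was 0.39, and 0.42 without library 2 of LPS+MIC-1. Fcna, ficolin A, was at 11.1, 10.6 and 13.2 FPKM with LPS and at 14.8, 15.1 and 15.1 with MIC-1, and the scavenger receptor gene Marco at 23.1, 40.4 and 31.3 against 74.2, 38.4 and 75.6 FPKM. The 14 markers summed to 143 to 176 FPKM in LPS and 179 to 260 in LPS+MIC-1.

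Nrf2 targets were shifted up slightly as a group and unevenly as genes. Of 36 tested targets 28 had a positive Log2FC, with a median of 0.20. The ranges did not overlap for 3 higher genes (Cbr3, Taldo1 and Me1) and 2 lower ones (G6pdx and Ephx1), against 5.1% and 4.64% of all genes. Cbr3, a carbonyl reductase, was at 0.413, 0.424 and 0.562 FPKM with LPS and at 2.31, 2.67 and 2.44 with MIC-1 (Log2FC 1.62, SE 0.36), above all controls (0.0978 to 1.03). It passed the filter on mean FPKM only through the LPS+MIC-1 group, so its place among the higher targets partly follows from the filter. Taldo1, the transaldolase of the pentose phosphate pathway, was at 85.8, 111 and 97.1 against 151, 124 and 153 FPKM. The glutathione transferase gene Gstm2 was at 47.0, 125 and 57.7 FPKM with LPS and 132, 107 and 134 with MIC-1, and Akr1b8, an aldehyde reductase, at 3.54, 9.74 and 4.56 against 8.75, 8.80 and 9.61. In these 2 genes library 2 of LPS was already as high as the MIC-1 libraries. The best known target Nqo1, the quinone reductase, was at 2.10, 3.41 and 3.10 FPKM with LPS and 2.88, 3.19 and 2.15 with MIC-1 (Log2FC -0.05, SE 0.26). Hmox1, heme oxygenase, was at 60.3, 21.2 and 59.7 against 52.1, 23.8 and 50.9 FPKM (Log2FC -0.09, SE 0.48). The sign of neither was stable when single libraries were left out. Nfe2l2 itself was at 25.4, 15.1 and 24.7 FPKM with LPS and 16.1, 15.4 and 13.1 with MIC-1 (Log2FC -0.50, SE 0.23), and Keap1 differed by 0.00 (SE 0.18). Of 26 glutathione and thiol enzymes 21 had a positive Log2FC (median 0.32) and the ranges did not overlap for 6, all higher, against 5.1% of all genes. Prdx2, a peroxiredoxin, was at 44.9, 94.9 and 59.8 against 89.5, 84.3 and 94.1 FPKM, and the catalase gene Cat at 120, 321 and 116 against 313, 192 and 308, both with library 2 of LPS above the other LPS libraries. Gpx4, which reduces lipid peroxides, was at 409, 592 and 485 FPKM with LPS and 645, 966 and 692 with MIC-1, without overlap. The library medians of these enzymes were 0.35, 0.23 and 0.36 with MIC-1 and -0.06, -0.20 and 0.21 with LPS. Of 47 phase II conjugation enzymes 38 were positive (median 0.22), but the library medians were 0.33, 0.01 and 0.32 with MIC-1 and overlapped those of LPS.

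Nearly all tested genes of the respiratory chain were slightly higher with MIC-1. Oxidative phosphorylation moves electrons from NADH and succinate to oxygen and uses the proton gradient to make ATP. Of 78 tested nuclear-encoded subunits 77 had a positive Log2FC, all but Ndufb11, with a median of 0.35, and the ranges did not overlap for 20, all higher, against 5.1% of all genes. Ndufv1, the complex I subunit that accepts electrons from NADH, was at 63.3, 54.3 and 71.1 FPKM with LPS and at 98.4, 76.6 and 104 with MIC-1 (Log2FC 0.56, SE 0.19), above the controls at 33.3 to 40.6. The small complex I subunit Ndufb8 was at 148, 168 and 167 against 202, 222 and 215 FPKM, and Ndufs5 at 117, 191 and 138 against 211, 245 and 207. Ndufb2 was at 6.99, 18.0 and 9.85 against 21.7, 17.5 and 23.3 FPKM, with library 2 of LPS in the MIC-1 range. The library medians were 0.32, 0.42 and 0.41 with MIC-1 and -0.28, 0.23 and -0.01 with LPS. Most of these subunits are short. With the trend in gene length taken out of each library, 75 of the 78 were still positive, 17 did not overlap, and the list median less that of all genes was 0.32. Genes of cytosolic ribosomal proteins were shifted in the same way but by less. Of 80 tested, 77 were positive, all but Rpl7l1, Rps19 and Rpl27, with a median of 0.23, and 7 did not overlap, all higher, against 5.1% of all genes. Their library medians were 0.06, 0.42 and 0.14 with MIC-1 and -0.36, 0.33 and 0.03 with LPS, which overlap, and without library 2 of LPS+MIC-1 the list median less that of all genes was 0.08. Against control, LPS had raised 39 of the 80 ribosomal genes and lowered 0, and had raised 9 and lowered 6 of the 78 respiratory genes, where 19.2% of all genes were raised and 15.5% lowered. Proteasome subunits, 20 higher and 18 lower of 38, and 58 translation factors, 21 higher and 37 lower, had medians near that of all genes (0.04 and -0.05).

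**Figure D4:**
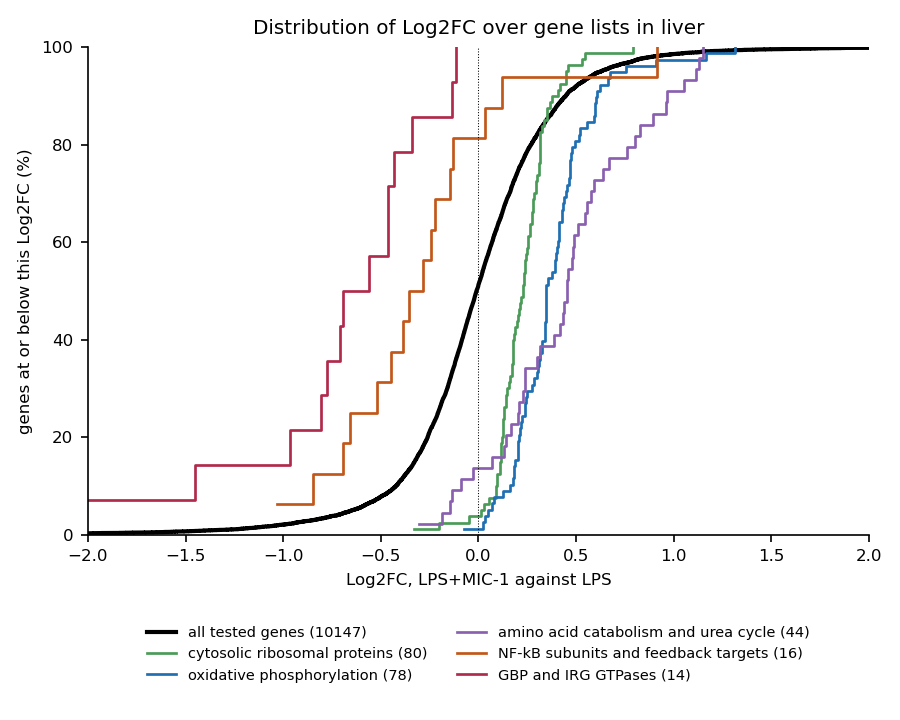
Cumulative share of genes (in %) at or below each Log2FC of LPS+MIC-1 against LPS, for all 10147 tested genes and 5 lists (number tested in brackets), with 47 genes beyond 2 in absolute value outside the axis. The curves of oxidative phosphorylation, ribosomal proteins and amino acid catabolism run to the right of that of all genes for most of their length, with medians of 0.35, 0.23 and 0.46, and those of the NF-κB genes (-0.32) and GTPases (-0.63) to the left.

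The acute-phase response was not lower with MIC-1. Of 25 acute-phase plasma protein genes 23 had a positive Log2FC, all but Orm3 and Serpina3n, with a median of 0.37, and 8 did not overlap, all higher, against 5.1% of all genes. The library medians were 0.44, 0.11 and 0.51 with MIC-1 and -0.03, -0.20 and 0.19 with LPS, which overlap. LPS had raised 22 of the 25 over control, against 19.2% of all genes. Saa2, serum amyloid A, was at 33709, 25531 and 48120 FPKM with LPS and at 66233, 65252 and 67773 with MIC-1, and the controls ranged from 57.6 to 4703 FPKM. Orm1, orosomucoid, was at 16781, 26240 and 21012 FPKM with LPS and 27229, 37765 and 28619 with MIC-1, and Itih3 at 935, 1528 and 1040 against 1511, 1613 and 1485, where the ranges overlapped. SE values were large here (0.38 for Orm1 and 1.28 for Saa2), since the controls, which share the fit, differed widely. Saa2 has a near-identical neighbour in Saa1, and reads could be split between them. Among 28 complement genes 21 were positive (median 0.21) and 6 did not overlap, all higher, against 5.1% of all genes. The library medians were 0.37, -0.10 and 0.39 with MIC-1 and -0.09, 0.06 and 0.06 with LPS, so library 2 of LPS+MIC-1 lay below all LPS libraries. The list median less that of all genes was 0.22, and 0.36 without that library. C3, on which all complement pathways converge, was at 2496, 2237 and 2672 against 3981, 2857 and 4025 FPKM, and Cfb, factor B, at 721, 800 and 787 against 1013, 882 and 1035.

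Hamp, the gene of hepcidin, the hormone that blocks iron release, was at 1593, 1874 and 1692 FPKM with LPS, at 5722, 2008 and 5998 with MIC-1 and at 5794 to 7315 in the controls (Log2FC 1.26, SE 0.41). The ranges did not overlap, but library 2 of LPS+MIC-1 lay just above the LPS libraries while the other two lay near the lowest control. Slc40a1, the iron exporter that hepcidin removes, was at 4.13, 9.51 and 4.8 FPKM with LPS and 20.4, 8 and 19.5 with MIC-1 (Log2FC 1.29, SE 0.40), where library 2 overlapped. The 29 tested genes of iron and metal handling as a list had a median of 0.13, with 19 higher and 10 lower. Less that of all genes it was 0.14, 0.06 without library 2 of LPS and 0.24 without library 2 of LPS+MIC-1.

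Amino acid catabolism and the urea cycle, functions of hepatocytes, showed a shift carried by 2 of 3 libraries. Of 44 tested genes 38 had a positive Log2FC, with a median of 0.46, but the ranges did not overlap for only 1, Oat, which was higher, against 5.1% of all genes. The library medians were 0.70, -0.09 and 0.75 with MIC-1 and -0.17, 0.20 and -0.07 with LPS, so library 2 of LPS+MIC-1 lay among the LPS libraries. Oat, ornithine aminotransferase, was at 103, 91.5 and 109 FPKM with LPS and at 165, 127 and 169 with MIC-1 (Log2FC 0.59, SE 0.18). Cps1, the first enzyme of the urea cycle, was at 71.8, 82.2 and 67.5 FPKM with LPS and 267, 57.1 and 268 with MIC-1, and at 234 to 301 in the controls. Ido2, a tryptophan-degrading dioxygenase, was at 4.97, 21.3 and 5.95 against 21.4, 17.8 and 20.5 FPKM. Without library 2 of both groups the list median less that of all genes was 0.90, with 37 genes higher and 5 lower without overlap. In that setting 3286 of all 10147 tested genes were higher and 3734 lower without overlap. Of the 12 hepatocyte markers all had a positive Log2FC (median 0.22), 0 without overlap, and their library medians were 0.48, -0.38 and 0.54 with MIC-1. Their median less that of all genes was 0.23, and 0.52 without library 2 of LPS+MIC-1. LPS had lowered 17 of the 44 genes of amino acid catabolism and raised 7, against 15.5% and 19.2% of all genes.

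Genes with smaller p-values outside the lists described above had varied functions. Among those higher with MIC-1 without overlap, Npr2, the receptor of C-type natriuretic peptide, was at 2.83, 3.47 and 2.52 FPKM with LPS and 6.65, 6.29 and 6.48 with MIC-1, with controls at 4.70 to 6.88 (Log2FC 1.03, SE 0.19). Ccbl2, a kynurenine aminotransferase, was at 23.9, 32.4 and 26.3 against 57.9, 41.9 and 56.0 FPKM, and Pitrm1, a mitochondrial peptidase, at 0.631, 1.38 and 0.486 against 3.90, 1.68 and 3.86. The histone gene Hist1h4c was at 0.591, 1.58 and 0.892 FPKM with LPS and 3.52, 3.72 and 3.71 with MIC-1. Among those lower, Gamt, the last enzyme of creatine synthesis, was at 63.3, 82.2 and 57.8 FPKM with LPS and at 26.6, 36.4 and 23.9 with MIC-1 (Log2FC -1.22, SE 0.21). Its controls were at 432 to 486 FPKM, so the MIC-1 libraries lay still further below the controls than the LPS libraries did. Ces1f, a carboxylesterase, was at 33.7, 12.0 and 26.5 against 7.48, 7.99 and 6.70 FPKM, with controls at 109 to 172, and showed the same order. Cyp4a32, a fatty acid hydroxylase in the lists of fatty acid oxidation and cytochrome P450 genes, was at 28.0, 47.0 and 29.3 against 16.7, 17.4 and 14.1 FPKM. Both belong to clusters of similar genes. The ubiquitin ligase gene Rnf111 was at 2.00, 3.30 and 1.10 FPKM with LPS and 0.680, 0.329 and 0.260 with MIC-1, and Gm4841 at 9.49, 12.6 and 9.14 against 3.25, 4.47 and 3.71. Ptgds, a prostaglandin D synthase, was at 2.44, 2.27 and 3.15 against 1.28, 2.03 and 0.677 FPKM.

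The study's own rule for liver, an unadjusted p below 0.05 and an absolute Log2FC above 1, gave 42 genes higher (0.414%) and 58 lower (0.572%). The ranges did not overlap for 22 and 37 of them, and 9 and 15 were listed at 0 in at least 1 of the 6 libraries. The genes with the largest differences were often of this kind. Snord69, a small nucleolar RNA gene, was at 5.38, 3.91 and 16.4 FPKM with LPS and listed at 0 in all 3 LPS+MIC-1 libraries and all controls. Snord17 was at 1.74, 4.55 and 1.7 FPKM with LPS, listed at 0 in all 3 LPS+MIC-1 libraries and at 2.16 to 13.4 in the controls, and Snora31 at 92.1, 65.7 and 92.9 against 32.4, 52.5 and 27.0 FPKM. Such genes are very short and lie within host genes, and the part of reads from unspliced host transcripts in their values was not tested. The arginine methyltransferase gene Prmt1 was at 2.6, 1.49 and 6.30 FPKM with LPS and listed at 0 in all LPS+MIC-1 libraries and in 2 of the controls, although most cells use it, so a value of 0 here need not mean absence. Dus2l, a transfer RNA-modifying enzyme gene, was at 2.32, 0 and 2.03 FPKM with LPS and 9.40, 6.31 and 6.21 with MIC-1, and at 0 in the controls. Dus2l passed the filter on mean FPKM only through the LPS+MIC-1 group, and Snord69 and Prmt1 only through the LPS group.

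Over all 53 lists with at least 5 tested genes, the library medians of LPS+MIC-1 and LPS overlapped for 47. They were higher with MIC-1 for 4 and lower for 2. Where nothing differs, a share of about 0.1 of lists would lie apart in this way. The lists that did are near that share, so their number is no yield of the comparison. Lists with medians close to that of all genes included proteins of the unfolded protein response (21 genes, median 0.01), lipogenesis and lipid droplets (27 genes, 0.01), heat shock genes (21 genes, 0.04), cytochrome P450 families (48 genes, -0.04) and gluconeogenesis (23 genes, -0.04). Lists shifted down with overlapping libraries included glycolysis and Hif1a genes (16 of 21 lower, median -0.18), circadian clock genes (15 of 18 lower, -0.20), immediate-early genes (13 of 18 lower, -0.24) and inflammasome genes (10 of 12 lower, -0.33). Less that of all genes, the median without library 2 of LPS went from -0.18 to -0.54 for glycolysis and from -0.23 to -0.55 for immediate-early genes, and the median without library 2 of LPS+MIC-1 went from -0.32 to -0.56 for inflammasome genes, whereas leaving out library 2 of the other group moved them the other way, to -0.05 for glycolysis, -0.03 for immediate-early genes and -0.19 for inflammasome genes. In glycolysis the libraries of LPS stood farther apart than the groups did, with medians of 0.40, -0.84 and 0.40 against -0.05, -0.37 and -0.03 with MIC-1.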

How the data were processed

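Livers of control, LPS and LPS+MIC-1 mice (3 libraries each) were sequenced as RNA. The authors pseudoaligned the reads with kallisto 0.45.0 to a RefSeq index of mm9, imported them with tximport, normalised them with DESeq2 1.20.0 and deposited FPKM values scaled by size factors. The authors' own comparison tables (fold changes and p-values) and the macrophage libraries were not used here. A gene was tested where its mean was above 1 FPKM over the 9 liver libraries. Log2(FPKM + 0.5) values were fitted with limma 3.58.1 (R 4.3.3) over all 3 groups with a trend in the prior variance, and p-values were adjusted by Benjamini-Hochberg over all 10147 genes. The test was checked on simulated data with independent libraries of equal spread, so the check does not cover the uneven likeness of libraries within a group. FPKM are not counts, and depth was estimated from the steps between low values. The table heads its columns by treatment only, so libraries were matched to a group but not to an animal. p-values measure only the spread between these libraries.

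Named genes were the 12 per direction with the smallest p among genes with ranges that did not overlap, up to 4 members of each list by p, up to 10 per direction of the study's rule, and the genes the study measured for cytokines, Nrf2 and NF-κB. Srebf2, Acat2, Gbp3, Saa2, S100a8, Reg1 and Lgals4 were added after their values were seen, as was a list of small nucleolar RNAs (65 tested, 26 higher, 38 lower, median -0.19). The members and lists were chosen with earlier results of these data known. Alternatives changed the pseudocount, filter, scaling, weights, variance trend and libraries. Gene positions are those of mm9, and promoters are from RefSeq (GRCm38.p6). Single values of some list members are not reported here, although the counts and medians of their lists include them.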

Additional observations from a re-analysis of the deposited data

How the results depend on the processing

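Less the median of all genes, 1067 of the list medians under other settings stayed within 1 SD of the library medians and 46 moved by more, and of the Log2FC values of named genes 1991 kept their direction and side of the threshold, 140 newly passed it and 18 changed sign. For cholesterol synthesis the median lay between 0.37 and 0.71, for the GTPases between -0.74 and -0.45 and for oxidative phosphorylation between 0.21 and 0.51, with an unchanged sign under all 21 alternatives. For amino acid catabolism it lay between 0.20 and 0.90 and for neutrophil markers between -1.01 and -0.38. The sign was unchanged under all alternatives for 37 of 53 lists and changed in at least 1 for 16, among them the unfolded protein response, cytochrome P450 families, proteasome subunits, lipogenesis, translation factors, gluconeogenesis and immediate-early genes (highest 0.03). An equal FPKM sum in all libraries moved the median of all genes from -0.01 to -0.26. Not every alternative could change a sign or a list median. Leaving out a control, fitting only the 6 libraries compared and dropping the variance trend leave each Log2FC as it was. A change of scaling is mostly taken out of a list median once the median of all genes is subtracted. The counts of unchanged values above include these settings.

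Counts of genes depended on library 2. The adjusted threshold, passed by 0 genes, was passed by 1 gene (Dmbt1) without the variance trend, with the length trend removed or with a pseudocount of 1, by 5 without a filter, by 3063 with array weights, which gave library 2 of LPS a weight of 0.126 and that of LPS+MIC-1 one of 0.285, by 373 without library 2 of both groups (added after seeing the data), and by 0 to 36 when single libraries were left out, the highest being without library 2 of LPS. Without library 3 of LPS the 1 gene was Mir692-1. The study's rule (100 genes, 42 higher and 58 lower) gave 704 (384 and 320) with array weights, 624 (348 and 276) without library 2 of both groups, 44 (16 and 28) with libraries 1 and 3 averaged (also added after seeing the data), 44 (24 and 20) with a mean FPKM above 5, 15 higher and 128 lower with an equal FPKM sum, and 69 to 445 (21 to 238 and 32 to 207) with single libraries left out. Ranges that did not overlap (989 genes, 518 higher and 471 lower) numbered 1823 (101 and 1722) with an equal FPKM sum, 1728 (884 and 844) with libraries averaged, 7020 (3286 and 3734) without library 2 of both groups, 616 with 212 lower at a mean FPKM above 5, and 766 lower without a filter. With single libraries left out they numbered 989 to 4615 (518 to 2056 and 471 to 2559), namely 4615 without LPS 2, 3357 without LPS+MIC-1 2 and 1643 without LPS 3. A range of 2 libraries is narrower than one of 3 by construction. The cause of the other changes was not tested.

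Genes near 0 changed sign. With an equal FPKM sum the Log2FC was -0.19 for Srebf2 and -0.28 for Keap1. With libraries averaged it was -0.0 for Keap1, with median of ratios scaling -0.01 for Keap1, and with array weights 0.01 for Nqo1. Leaving out single libraries gave -0.26 to 0.46 for Srebf2, -0.11 to 0.12 for Keap1, -0.22 to 0.09 for Nqo1, -0.58 to 0.27 for Hmox1 and -0.39 to 0.02 for Nfkb1. No paired analysis was possible because the columns of the table carry a treatment and no replicate number. With 3 libraries per group the median SE was 0.29, which limits what single genes can show.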
